A study of Mus musculus with 12 samples.

Results

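The 34 genes described here mark the cells that build brain blood vessels: endothelial cells, which line them, and the mural cells around them, which are pericytes on capillaries and smooth muscle cells on arteries and arterioles. They were picked by name as known markers of these cells, with earlier results of these data known, by a rule that used no measured value. All 34 were found among the 18394 genes of the count table, and all 34 were among the 15467 genes with enough counts to be tested. Messenger RNA was sequenced from the cerebella of 12 mice. Of these, 6 are labelled wild type (WT) and 6 are conditional knock-outs (cKO) labelled as a deltaalpha6-Cre knock-out of Crfr1, the type 1 receptor for corticotropin-releasing factor, which appears here as Crhr1. The α6 in the driver's name is that of a GABA-A receptor subunit (gene Gabra6), which in the cerebellum is typical of granule cells and not of vessels. The labels give no age, sex, litter or strain, and no mice that carry Cre without the knock-out, so receptor loss and the presence of the driver cannot be told apart. Each library is 1 sample of whole cerebellum, in which vascular cells are a minority among neurons and glia.

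Endothelial cells of the brain are joined by tight junctions and carry nutrients and drugs across their membranes with dedicated transporters, which together form the blood-brain barrier. They respond to vascular endothelial growth factor through the receptors encoded by Flt1 and Kdr, to angiopoietins through Tek, and to ligands of the TGF-β family through a complex that includes Eng. Pericytes are recruited by endothelial platelet-derived growth factor acting on Pdgfrb, whereas smooth muscle cells contract through the actin and myosin encoded by Acta2 and Myh11.

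Many genes of endothelial identity are known to be controlled by transcription factors of the ETS family, which bind sites around a GGAA core. Stretches of 250 bases before the start site are therefore shown for a pair of identity genes, Eng and Flt1, beside the barrier gene Cldn5 and the pericyte gene Kcnj8, to let the reader compare promoters of members from different vascular roles. The sequences are from RefSeq on GRCm38.p6, run 5′ to 3′ on the gene's strand, and show in capitals the letters AGGAAG or, for the other strand, CTTCCT. They lie at chr2:32646345-32646594 (plus strand) for Eng, chr5:147726012-147726261 (minus) for Flt1, chr16:18776597-18776846 (plus) for Cldn5 and chr6:142571615-142571864 (minus) for Kcnj8.
Eng: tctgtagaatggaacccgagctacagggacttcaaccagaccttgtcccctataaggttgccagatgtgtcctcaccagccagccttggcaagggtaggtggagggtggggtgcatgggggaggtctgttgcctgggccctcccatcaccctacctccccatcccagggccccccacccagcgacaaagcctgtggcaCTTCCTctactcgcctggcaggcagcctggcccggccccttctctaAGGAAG
Flt1: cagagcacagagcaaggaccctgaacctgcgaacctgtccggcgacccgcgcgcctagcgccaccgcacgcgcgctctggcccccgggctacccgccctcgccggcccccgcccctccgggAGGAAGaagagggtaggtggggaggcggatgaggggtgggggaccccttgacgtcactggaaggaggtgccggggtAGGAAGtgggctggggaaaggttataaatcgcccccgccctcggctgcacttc
Cldn5: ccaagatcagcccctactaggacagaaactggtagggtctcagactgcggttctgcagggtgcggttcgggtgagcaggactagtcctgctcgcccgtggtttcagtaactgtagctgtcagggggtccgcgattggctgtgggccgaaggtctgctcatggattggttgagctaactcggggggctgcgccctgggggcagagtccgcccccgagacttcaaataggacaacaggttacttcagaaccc
Kcnj8: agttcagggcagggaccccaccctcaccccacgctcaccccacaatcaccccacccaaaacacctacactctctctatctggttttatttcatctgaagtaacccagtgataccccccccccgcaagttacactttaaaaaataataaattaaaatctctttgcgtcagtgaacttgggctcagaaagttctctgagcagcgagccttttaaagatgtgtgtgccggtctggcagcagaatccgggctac
Eng and Flt1 each held 2 matches, and the Cldn5 and Kcnj8 windows held 0. The windows shown do not stand for all members of a role. The identity genes Kdr and Tek held 0 matches, and the barrier genes Abcb1a and Slco1a4 held 2 and 1. RefSeq promoters were matched for 23 of the 34 members, with more than 1 window for Egfl7, Ly6c1 and Ocln, and the windows of Ly6c1 overlap each other, as do those of Ocln. The letters AGGAAG, on either strand, were present in 8 of the 12 windows of identity genes, in 2 of 8 windows of barrier genes, in 0 of 6 of pericyte genes and in 0 of 1 of smooth muscle genes. Over all 32851 promoter windows of the same length the share was 29.5%. The longer CAGGAAG, which contains AGGAAG, was in 4 of the 12 identity windows against 10.8% of all windows, CCGGAAGT was in 0 of the 12 against 2.88%, and the core GGAA alone, which every one of these contains, was in 93.4% of all windows. These matches describe letters and do not show binding.

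The shallowest library held 23803779 counts and the deepest 62104185, and the least abundant member, Higd1b, still had 60 counts in its lowest library. The unit of level is CPM, a gene's counts relative to the TMM-adjusted total of its library. Crhr1 measured 91.6 to 101.6 CPM in the 6 WT libraries and 88.7 to 104.8 in the 6 cKO libraries. Counts over the whole gene include parts that a knock-out may leave in place, so this does not check the labels. Gabra6 was abundant in all 12 libraries, as the labelled tissue would have it. It measured 710 to 871 CPM in the 6 WT libraries and 583 to 669 in the 6 cKO libraries. These ranges did not overlap, a separation seen in 2.09% of all tested genes, and its cause was not tested. The forebrain genes Emx1 and Dlx1 had at most 16 counts in any library.

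Vascular messenger was readily measured in whole cerebellum. Among identity genes the highest level per kilobase of exon in WT was that of Itm2a, a membrane protein of endothelial cells, at 29.5 CPM per kilobase. Ly6c1, a surface protein of brain endothelium, followed at 15.5, and Emcn, which encodes the sialomucin endomucin, was lowest at 1.24. In the barrier group Bsg stood far above the others at 245 CPM per kilobase. Bsg encodes basigin, a chaperone of the lactate transporter Slc16a1, and it is also made by neurons and glia, so its level does not measure vessels alone. Slc2a1, the glucose transporter GLUT1, and Cldn5, the main claudin of brain endothelial tight junctions, had similar levels at 23.3 and 22.5 CPM per kilobase.

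Levels of mural genes per kilobase covered a range that overlapped that of the identity genes. Vtn, the adhesive glycoprotein vitronectin, reached 42.3 CPM per kilobase in WT. Rgs5, a regulator of G protein signalling, measured 7.32, and the receptor gene Pdgfrb measured 5.82. The paired subunits of the pericyte ATP-sensitive potassium channel were close to each other, Kcnj8 at 1.56 and Abcc9 at 1.67. Among smooth muscle genes Acta2 measured 5.42, the actin-binding Tagln 4.24 and Myh11 1.96. The plot of levels per length shows that in each of the 34 genes the WT and cKO libraries covered overlapping ranges.

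**Figure D1:**
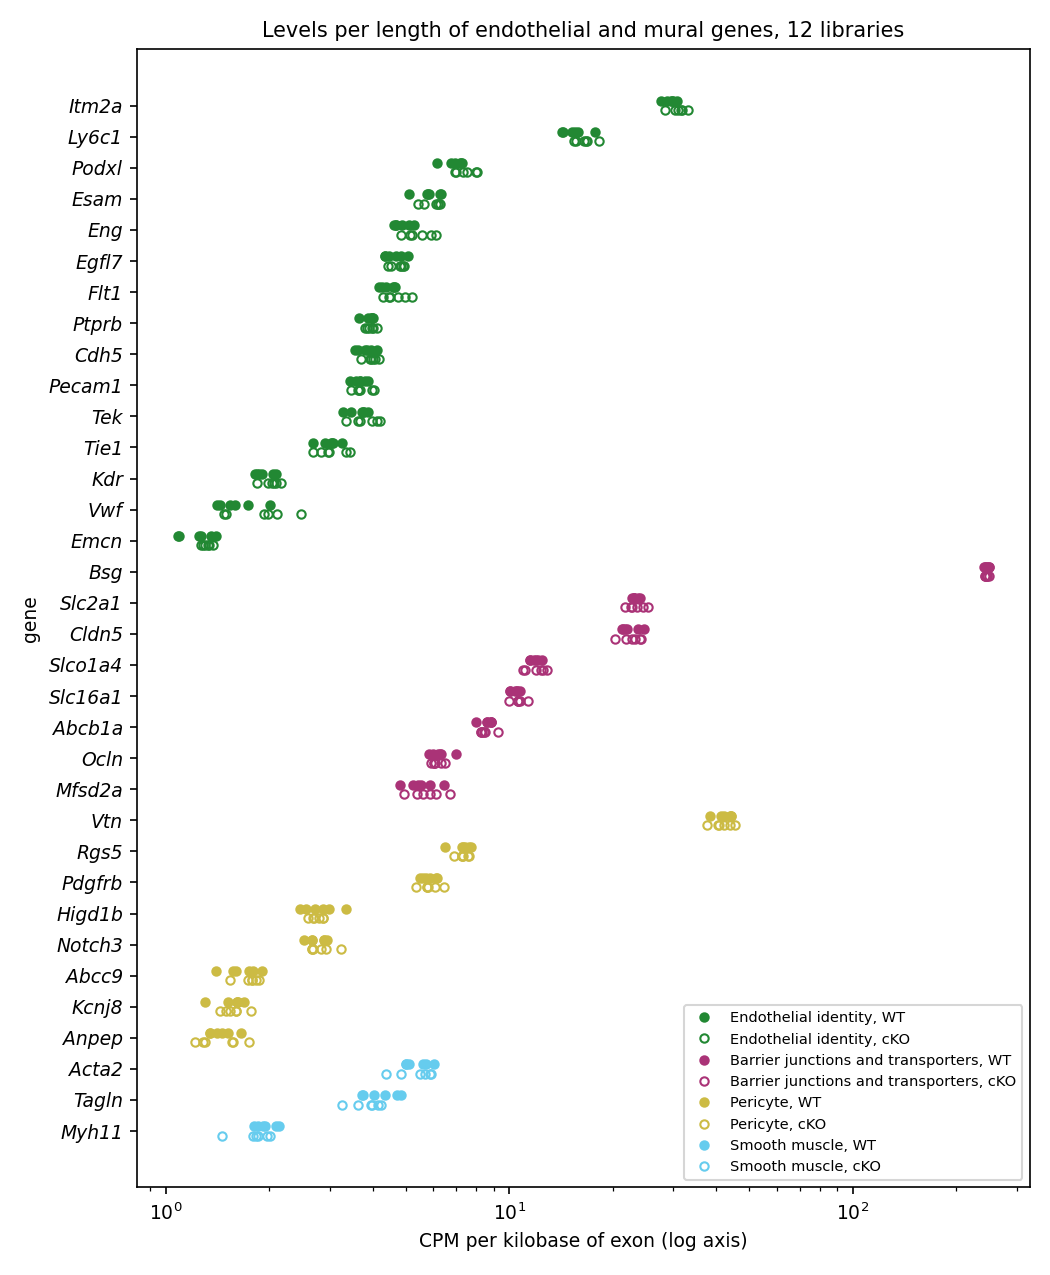
Level of each of the 34 vascular genes in every library, as CPM per kilobase of exon on a log axis, with WT libraries as filled and cKO libraries as open circles, 6 of each, grouped by role. Bsg stands at 245 CPM per kilobase in WT, while most other genes lie between 1 and 30, and filled and open circles overlap in every row.

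None of the 34 vascular genes passed the test between cKO and WT cerebella after adjustment over all genes tested. The count was 0 of 34 by edgeR's quasi-likelihood test at a Benjamini-Hochberg adjusted p under 0.05, where 2.64% of all tested genes were called. DESeq2 also called 0 of 34, with a smallest adjusted p of 0.102. At an unadjusted p under 0.05 there were 3 members by edgeR (Eng, Podxl and Itm2a) and 3 by DESeq2, against 14.2% of all genes by edgeR. In the authors' deposited table none of the members (0 of 34) had an adjusted p under 0.05, and the smallest was 0.106. In no member did the 6 libraries of one genotype lie all above those of the other, a separation seen in 2.09% of all genes.

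The intervals bound how large a difference these libraries could have held. For 31 of the 34 members (91.2%) the 95% interval of the fold change lay within 1.2-fold in either direction, and for 34 of 34 it lay within 1.5-fold. Among the 12448 genes in the same range of mean level the first share was 89.5%, so this precision is not particular to vessels. The 3 members with wider intervals were Eng, Vwf and Tagln. A whole-tissue measurement cannot tell fewer vascular cells from less messenger per cell.

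**Figure D2:**
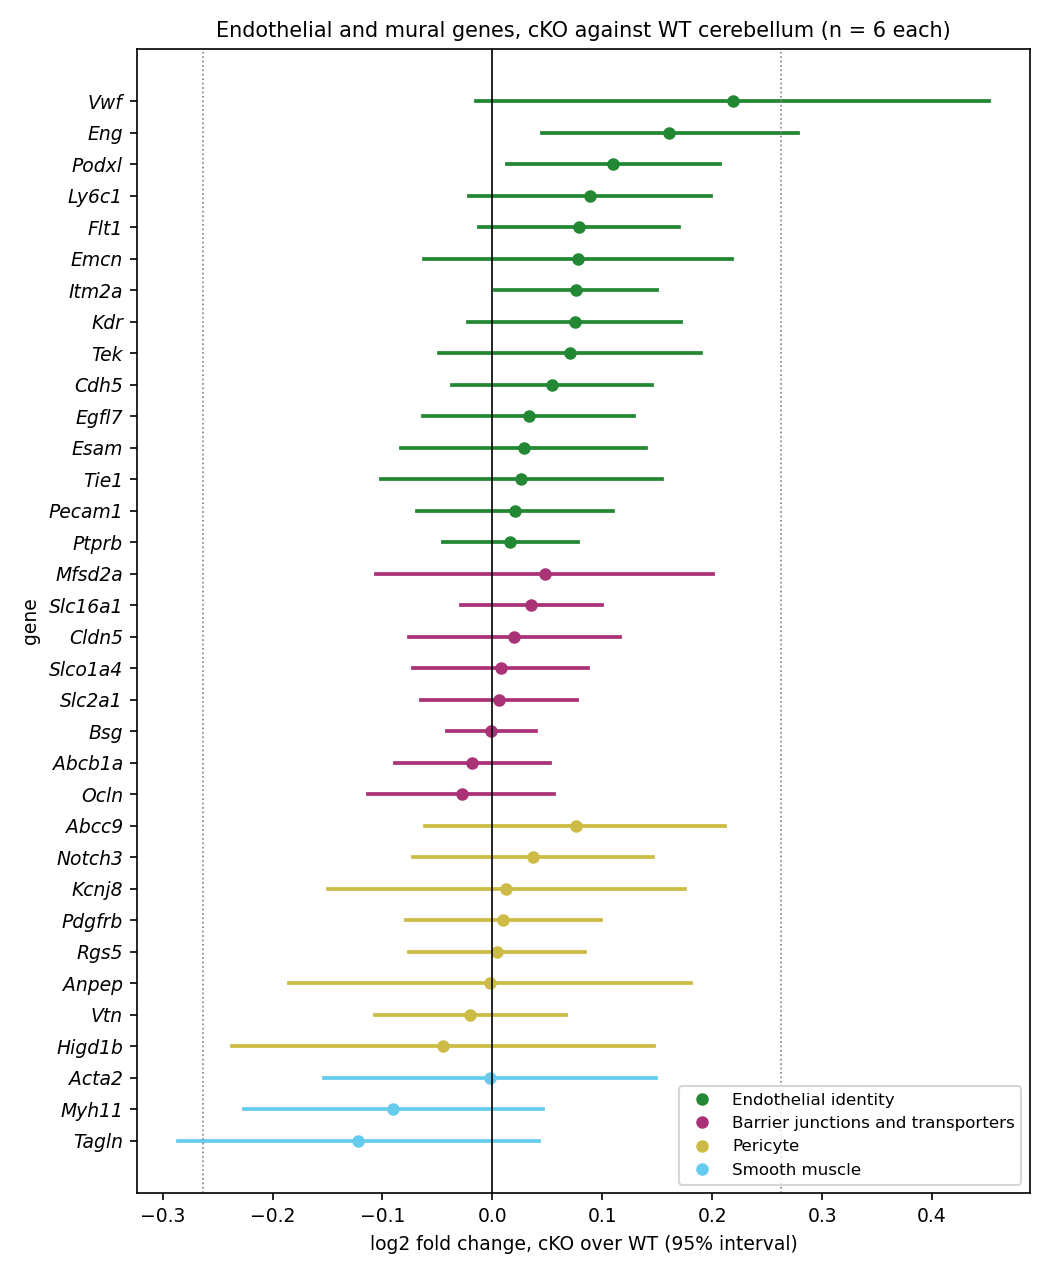
Log2 fold change of each of the 34 vascular genes, cKO over WT (point), with its 95% interval (bar), from 6 libraries per genotype. Dotted lines mark a 1.2-fold difference in either direction, and the bars of 31 genes stay between them. All 15 identity genes lie to the right of 0.

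Genes of endothelial identity had slightly higher levels in cKO without passing the test. All 15 log2 fold changes were positive, from 0.016 for Ptprb, a phosphatase that restrains Tek signalling, to 0.22 for Vwf, and their median was 0.075, against a median of 0 over all tested genes. The count called was 0 of 15, against 2.64% of all tested genes. Genes of 1 cell type share libraries, so the 15 signs are not independent. On leaving out 1 library the median was 0.045 to 0.087, lowest without cKO replicate 3. Without WT replicate 3, 12 of the 15 were positive, and 14 were without cKO replicate 2, 3 or 5.

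Eng (chr2:32646595-32682669, plus strand, mm10) encodes endoglin, a co-receptor for BMP ligands that is concentrated on endothelial cells. Its levels ran from 18.6 CPM in the lowest WT library through a median of 19.4 to 21.4 in the highest. In cKO they ran from 19.5 through 21.8 to 24.8. All 6 cKO libraries were above the WT median and 3 were above the highest WT library, so the genotypes overlapped. The means were 19.7 ± 1.10 and 22.1 ± 1.98 CPM (SD, n = 6 each), a difference of 11.8% with a 95% interval of 3.16 to 21.2%. The log2 fold change was 0.16 (SE 0.055), with an unadjusted p of 0.00928 and an edgeR adjusted p of 0.159. A two-sided exact permutation test of this gene alone gave p = 0.0303. Without cKO replicate 6 the gene passed (edgeR adjusted p = 0.0468), and over all 22 alternative fits its adjusted p ranged from 0.0468 to 0.712. Exons of Eng overlap Fpgs on the opposite strand, and whether the counting used strand is not given in the sources used here.

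Podxl (chr6:31519488-31563981, mm10) encodes podocalyxin, a sialomucin on the luminal face of endothelium. It measured 33.8, 38.9 and 40.0 CPM in the lowest, median and highest WT library and 38.1, 40.9 and 44.2 in cKO. WT replicate 3 was the lowest of all 12, and 4 cKO libraries were above the highest WT library. Its log2 fold change was 0.11 (SE 0.046, edgeR adjusted p = 0.276, exact permutation p = 0.0693). Itm2a (chrX:107397099-107403376, mm10) measured 48.2, 51.8 and 53.7 CPM in WT and 49.6, 54.6 and 57.7 in cKO, with a log2 fold change of 0.076 (SE 0.035, edgeR adjusted p = 0.333, exact permutation p = 0.0736).

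Vwf (chr6:125546774-125686679, mm10), the clotting factor stored in endothelial granules and richest in larger veins, had the highest fold change of the 34 and also the widest spread. It ran from 22.6 through 25.2 to 32.4 CPM in WT and from 23.7 through 31.5 to 39.7 in cKO. In cKO, 4 libraries were above the WT median, while replicates 4 and 6 lay among the low WT values. On the log2 scale cKO was higher by 0.22, with an SE of 0.11, a 95% interval of −0.015 to 0.45 and an adjusted p of 0.390 in edgeR. It was 0.13 without cKO replicate 2, the highest library, and was 0.31 without WT replicate 6. Without the 4 libraries highest in forebrain neuron genes, an alternative chosen after the data were seen, it was −0.036, and with surrogate variables it was 0.066. Its variation between libraries of a genotype was 17.6%, and its estimated biological coefficient of variation was 2.80 times the trend for genes of its level.

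The receptors of the main vascular growth factors were close to WT levels. Flt1, a high-affinity VEGF receptor that acts largely as a decoy, measured 60.04 ± 2.71 CPM in WT against 63.5 ± 4.70 in cKO (SD, n = 6 each; log2 fold change 0.079, edgeR adjusted p = 0.434). Kdr, the signalling VEGF receptor, measured 17.4 ± 1.06 and 18.3 ± 0.955 (SD, n = 6 each; 0.075, adjusted p = 0.499). Tek, the angiopoietin receptor, had a log2 fold change of 0.071, and Tie1, its orphan partner, 0.026 (edgeR adjusted p = 0.633 and 0.903). None of these 4 receptors passed the test.

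The remaining identity genes stayed within a narrow band. Cdh5, the cadherin of endothelial adherens junctions, had a log2 fold change of 0.054, and Pecam1, an adhesion molecule at cell contacts, 0.021. Emcn had 0.078, with all 6 cKO libraries above the WT median but none above the highest WT library. Ly6c1 had 0.089, also with 6 cKO libraries above the WT median, and Esam and Egfl7, an adhesion molecule and a secreted endothelial protein, had 0.029 and 0.033. Ly6c1 has a near-identical neighbour, Ly6c2, and exons of Egfl7 overlap Agpat2, so reads of these genes could have been shared in counting. The lowest edgeR adjusted p among these 6 was 0.469, for Ly6c1.

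**Figure D3:**
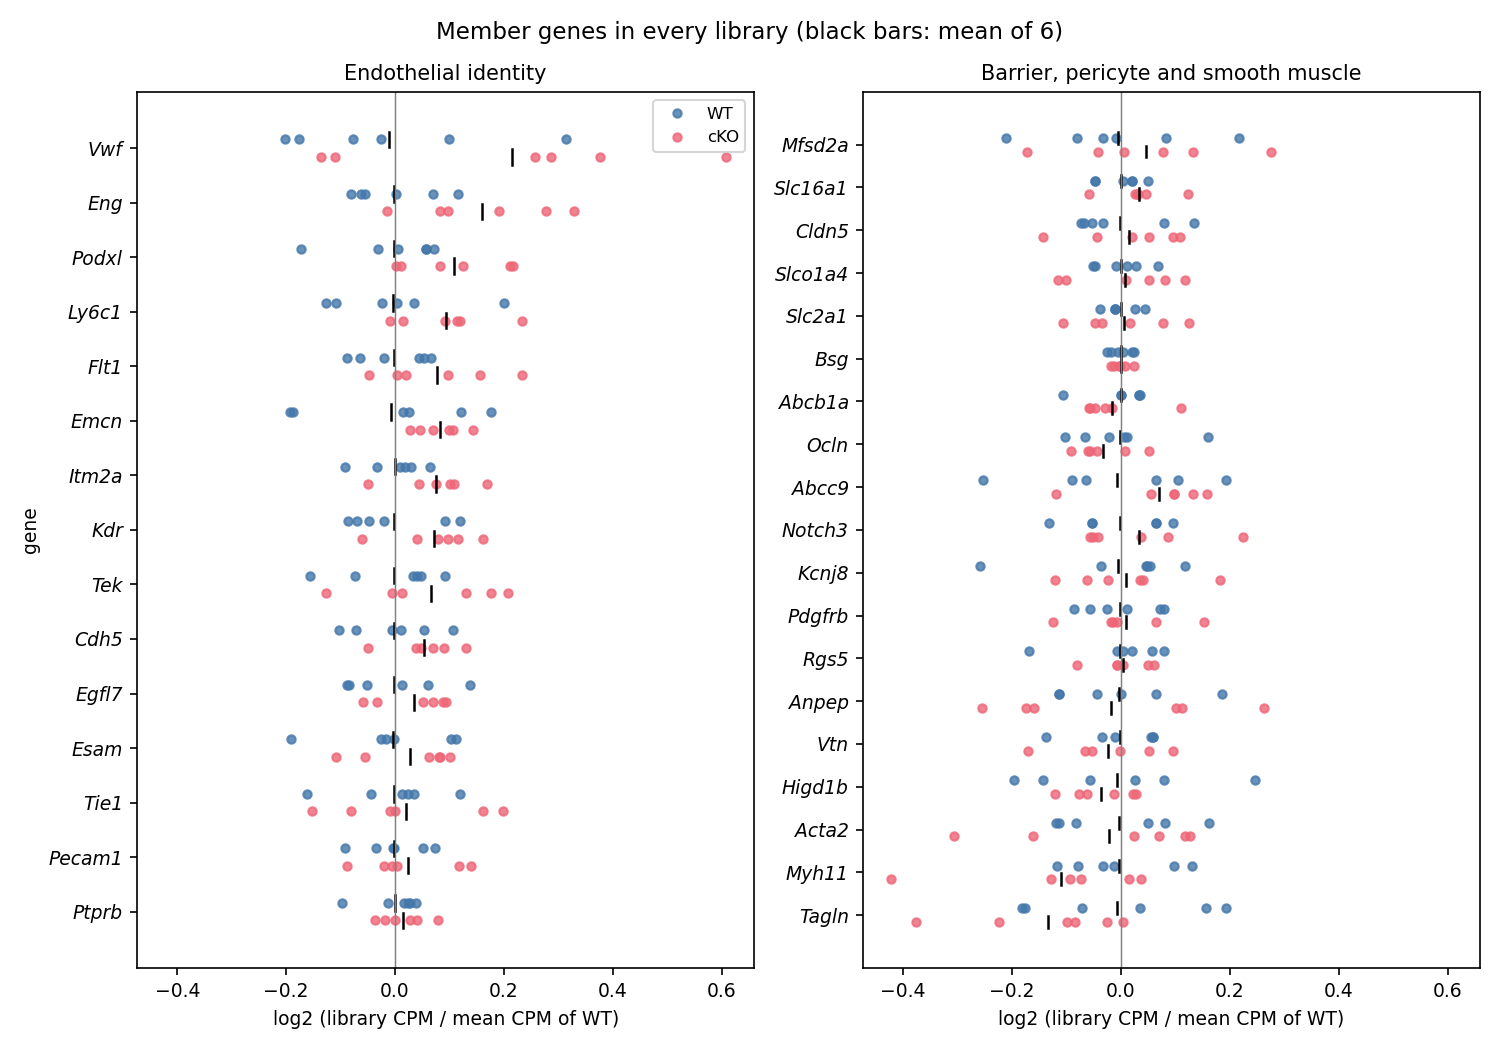
Level of each vascular gene in every library, as log2 of its CPM over the mean CPM of WT, with WT in blue, cKO in red and black bars at the mean of 6. Vwf spans the widest range, Bsg the narrowest, and the red means of all 15 identity genes lie right of the blue ones.

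Of the 8 junction and transport genes of the blood-brain barrier 0 were called, against 2.64% of all tested genes. Several of the 8 were measured with narrow intervals. The median log2 fold change was 0.007, with a range of −0.028 to 0.048, beside a median of 0 over all tested genes. All 8 intervals lay within 1.2-fold. Bsg measured 445 ± 6.24 CPM in WT against 444.5 ± 4.74 in cKO (SD, n = 6 each), a difference of −0.0443% with a 95% interval of −2.80 to 2.79%. Slc2a1 measured 81.7 ± 1.70 and 82.1 ± 4.89 CPM (SD, n = 6 each), and the cKO libraries were more spread, with 2 above and 2 below all WT libraries. Cldn5 measured 31.8 ± 1.97 and 32.2 ± 2.08 CPM (SD, n = 6 each; log2 fold change 0.020, 95% interval −0.076 to 0.12).

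The 3 barrier genes with the smallest p were Slc16a1, Ocln and Mfsd2a. Slc16a1, the monocarboxylate transporter MCT1, measured 44.5, 46.4 and 47.6 CPM in the lowest, median and highest WT library and 44.2, 47.0 and 50.1 in cKO (log2 fold change 0.035, edgeR adjusted p = 0.670). Ocln, the tight junction protein occludin, measured 24.7, 26.4 and 29.6 in WT and 24.9, 25.6 and 27.5 in cKO (−0.028, adjusted p = 0.819). Mfsd2a, a lipid transporter that holds down transcytosis across brain endothelium, measured 10.8, 12.3 and 14.6 in WT and 11.1, 12.9 and 15.2 in cKO (0.048, adjusted p = 0.836). In each of the 3 the ranges of the genotypes overlapped over most of their length.

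Slco1a4, an organic anion transporter, and Abcb1a, the efflux pump P-glycoprotein, had log2 fold changes of 0.008 and −0.019 (edgeR adjusted p = 0.958 and 0.868). Both have close paralogs, and Abcb1b, the near copy of Abcb1a, was found at only 2.08 CPM in WT (log2 fold change −0.087, edgeR adjusted p = 0.724). Abcb1a was singular in its spread: 5 cKO libraries lay below the WT median and within 45.4 to 46.7 CPM, while cKO replicate 1 was the highest of all 12 at 51.0.

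Pericyte genes had nearly the same levels in both genotypes. Of 8 members 0 were called, against 2.64% of all tested genes. The median log2 fold change of the 8 was 0.007 and the range was −0.045 to 0.076, with all 8 intervals within 1.2-fold. The median changed sign without cKO replicate 2 (−0.004) or cKO replicate 5 (−0.012), with thinned counts (−0.009) and with surrogate variables (−0.010), so it has no direction. Pdgfrb measured 31.9 ± 1.49 CPM in WT against 32.1 ± 2.09 in cKO (SD, n = 6 each; log2 fold change 0.010, 95% interval −0.079 to 0.099). Rgs5 measured 33.3 ± 1.95 and 33.4 ± 1.15 (SD, n = 6 each; 0.004, 95% interval −0.076 to 0.084). Vtn and Anpep, a membrane aminopeptidase, had log2 fold changes of −0.020 and −0.002.

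The 3 pericyte genes with the smallest p were Abcc9, Notch3 and Higd1b. Abcc9 measured 11.8, 14.02 and 16 CPM in the lowest, median and highest WT library and 12.9, 14.97 and 15.6 in cKO (log2 fold change 0.076, edgeR adjusted p = 0.663). Its channel partner Kcnj8 measured 3.98 ± 0.348 and 4.01 ± 0.295 CPM (SD, n = 6 each; 0.012, adjusted p = 0.968). Neither subunit passed, and the ranges of the genotypes overlapped in both. Notch3, the Notch receptor of mural cells, measured 20.4, 22.5 and 23.9 in WT and 21.5, 22.3 and 26.1 in cKO (0.037, adjusted p = 0.816). Higd1b, a small mitochondrial protein used as a pericyte marker, measured 2.09, 2.37 and 2.84 in WT and 2.20, 2.33 and 2.44 in cKO (−0.045, adjusted p = 0.887). The cKO values of Higd1b lay inside the WT range.

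The 3 smooth muscle genes had negative log2 fold changes, with a median of −0.090, and 0 of 3 passed, against 2.64% of all tested genes. Tagln, also known as SM22α, measured 7.43, 8.32 and 9.63 CPM in the lowest, median and highest WT library and 6.49, 7.90 and 8.44 in cKO (log2 fold change −0.12, SE 0.078, edgeR adjusted p = 0.516). Myh11, smooth muscle myosin heavy chain, measured 13.7, 14.6 and 16.3 in WT and 11.1, 14.05 and 15.3 in cKO (−0.090, SE 0.065, adjusted p = 0.580). Acta2, smooth muscle α-actin, measured 11.0, 11.8 and 13.3 in WT and 9.62, 12.3 and 13.0 in cKO (−0.002, SE 0.072, adjusted p = 0.996). For Myh11 and Acta2, cKO replicate 1 was the lowest of all 12 libraries. Exons of Tagln overlap Pcsk7 on the opposite strand, so reads of these genes could have been shared in counting. With the level of forebrain genes as a covariate, an alternative chosen after the data were seen, the median of the 3 turned to 0.033. It was −0.025 with surrogate variables and −0.118 to −0.041 on leaving out 1 library, nearest to 0 without cKO replicate 1.

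The levels of Acta2 and Myh11 varied together from library to library. Over the 12 libraries Pearson's r was 0.793 (permutation p = 0.00222, adjusted over 8 pairs 0.0178) and Spearman's rho was 0.713 (permutation p = 0.0120, adjusted 0.0958). Within WT r was 0.804 and within cKO 0.854 (exact permutation p = 0.0736 and 0.0333, n = 6 each). Without cKO replicates 1 and 6, the libraries farthest from the median of Acta2, r was 0.554 (permutation p = 0.0970, n = 10), so the relation rests in part on those 2. Acta2 and Tagln were weakly related (r = 0.256, rho = 0.371, permutation p = 0.421 and 0.237), with r = 0.0429 without those libraries. The overlap of Tagln with Pcsk7 limits these values too.

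Partners in other vascular pairs did not pass after adjustment over the 8 pairs. The subunits Kcnj8 and Abcc9 had r = 0.383 and rho = 0.420 (permutation p = 0.221 and 0.178), and r = 0.134 without the 2 libraries farthest from the median of Kcnj8. The VEGF receptors Flt1 and Kdr had r = 0.503 and rho = 0.559 (permutation p = 0.0951 and 0.0635), with r = 0.174 without the 2 farthest libraries, −0.0101 within WT and 0.687 within cKO. Slc16a1 and its chaperone Bsg had r = 0.327 and rho = 0.343 (permutation p = 0.304 and 0.275), and r = 0.398 without the 2 farthest.

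Negative values were found for 3 pairs. Cldn5 with Slco1a4 had r = −0.565 and rho = −0.587 (permutation p = 0.0567 and 0.0485), and r = −0.347 without the 2 farthest libraries. Pdgfrb with Rgs5 had r = −0.495 and rho = −0.406 (permutation p = 0.105 and 0.193), and r = −0.510 without them. Tek with Tie1 had r = −0.249 and rho = −0.210 (permutation p = 0.431 and 0.516), and r = −0.641 without WT replicate 2 and cKO replicate 3 (permutation p = 0.0444, n = 10). For the 7 pairs other than Acta2 with Myh11 the adjusted p of r was at least 0.210 and that of rho at least 0.169.

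Beyond the members, 141 of 142 further vascular genes in 5 lists were tested (Actg2 had too few counts), and 9 of them passed the test, of which 2 rose and 7 fell in cKO, against 2.64% of all tested genes. The lists had been written with earlier results of these data known. Their median log2 fold change was 0.021. The 9 calls fell in all 5 lists: 1 of 34 other endothelial genes, 3 of 24 further barrier genes, 1 of 31 further mural genes, 3 of 36 genes of vascular signalling and 1 of 16 genes of the basement membrane. Several of the 9 are also made by neurons or glia, and whole tissue does not say which cells changed. The count rests on single libraries: it was 5 without WT replicate 1, WT replicate 5 or cKO replicate 1, 4 without WT replicate 4, and 3 without WT replicate 3 or cKO replicate 3. It was 2 with surrogate variables, with the forebrain level as a covariate and without the 4 libraries highest in forebrain genes.

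Car4, carbonic anhydrase 4, a membrane enzyme of capillary endothelium that neural cells also express, had the smallest p of the 9 (chr11:84957786-84966044, mm10). It measured 158, 165 and 169 CPM in the lowest, median and highest WT library and 186, 191.5 and 208 in cKO, with all 6 cKO libraries above all 6 WT libraries. It rose by 18.3% (log2 fold change 0.24, SE 0.029, edgeR adjusted p = 4.80e-05) and passed in 22 of 22 alternative fits. Cgnl1 (chr9:71626509-71771602), paracingulin, a junction protein that endothelium shares with other cells, measured 136, 143 and 147 CPM in WT and 107, 127 and 134 in cKO, again without overlap. Its log2 fold change was −0.22 (SE 0.048, edgeR adjusted p = 0.0152), and it passed in 21 of 22 alternative fits, the exception being the fit with surrogate variables (adjusted p = 0.0726).

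Mcam (chr9:44134469-44142727, mm10), an adhesion molecule of pericytes, smooth muscle and some neurons, measured 56.7, 60.4 and 63.6 CPM in WT and 49.7, 51.8 and 57.0 in cKO. It fell by 12.8% (log2 fold change −0.20, SE 0.035; adjusted p = 0.00290 in edgeR), with 5 cKO libraries below all WT libraries. The call held in all 12 fits that left out 1 library. It was lost with surrogate variables, with the forebrain level as a covariate and without the 4 libraries highest in forebrain genes (adjusted p = 0.0556, 0.288 and 0.0657, range over 22 alternatives 1.46e-05 to 0.288).

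Acvrl1 (chr15:101128522-101145336, mm10) encodes ALK1, the endothelial type I receptor that works with endoglin. It measured 11.4, 12.1 and 13.0 CPM in the lowest, median and highest WT library and 12.7, 14.7 and 15.5 in cKO, with 5 cKO libraries above all WT libraries. It rose by 16.9% (log2 fold change 0.23, SE 0.054, edgeR adjusted p = 0.0275), beside a value for its partner Eng of 0.16 that did not pass. The call ended when any of WT replicates 1 to 5 or of cKO replicates 1, 2, 3 and 5 was left out, with an edgeR adjusted p of 0.0512 to 0.0756. With the forebrain level as a covariate the adjusted p was 0.621, the highest over 22 alternatives, which began at 0.00687. Exons of Acvrl1, Mcam and Axin2 overlap unnamed genes on the opposite strand.

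Hey1, a transcription factor induced by Notch, was lower by a small and even amount. It measured 44.4, 45.0 and 45.4 CPM in WT and 41.3, 41.9 and 42.8 in cKO, without overlap (log2 fold change −0.098, SE 0.023, edgeR adjusted p = 0.0274). The call ended when any of WT replicates 1 to 5 or of cKO replicates 1 to 4 was left out, with an edgeR adjusted p of 0.0507 to 0.0690, while the log2 fold change of Hey1 stayed within −0.104 to −0.092 over all 22 alternatives. Axin2, a feedback target of Wnt signalling in endothelium and other cells, fell by 13.1% (−0.20, SE 0.051, adjusted p = 0.0377). It missed the threshold in the fits that left out one of WT replicates 1, 3, 4 and 5 or one of cKO replicates 1, 3 and 4, where the adjusted p was 0.0565 to 0.0944.

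Lamb1, the laminin β1 chain of basement membranes, fell by 11.7% (log2 fold change −0.18, SE 0.042, edgeR adjusted p = 0.0237). It missed the threshold once WT replicate 3, WT replicate 4, WT replicate 5 or cKO replicate 3 was left out, at adjusted p values of 0.0543 to 0.0650. Marveld2, tricellulin, a protein of junctions where 3 cells meet, fell by 13.4% (−0.21, SE 0.049, adjusted p = 0.0248). Leaving out one of WT replicates 3 and 6 or of cKO replicates 1, 2 and 3 brought Marveld2 to an adjusted p of 0.0530 to 0.0786. Lrp8, a receptor for reelin and apolipoprotein E that neurons also carry, fell by 6.96% (−0.10, SE 0.025, adjusted p = 0.0278). For Lrp8 the libraries that ended the call were WT replicates 1, 3, 4 and 6 and cKO replicates 3 and 4, at 0.0541 to 0.0920. Lrp8 and Axin2 lie outside the rule for named genes and are given because they were called. Calls of all 6 genes from Acvrl1 to Lrp8 were also lost with the forebrain level as a covariate and without the 4 libraries highest in forebrain genes (adjusted p = 0.208 to 0.621). With surrogate variables the calls of Acvrl1 (0.272), Hey1 (0.309), Axin2 (0.376), Lamb1 (0.0941) and Lrp8 (0.305) were lost. Thinned counts ended those of Acvrl1 (0.140), Hey1 (0.0699) and Lamb1 (0.127), and the choroid plexus level those of Acvrl1 (0.0501), Hey1 (0.0581), Axin2 (0.0617) and Lrp8 (0.0552). The sign of all 6 log2 fold changes was kept in all 22 alternatives, with values of 0.141 to 0.259 for Acvrl1 and −0.240 to −0.086 for the other 5.

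**Figure D4:**
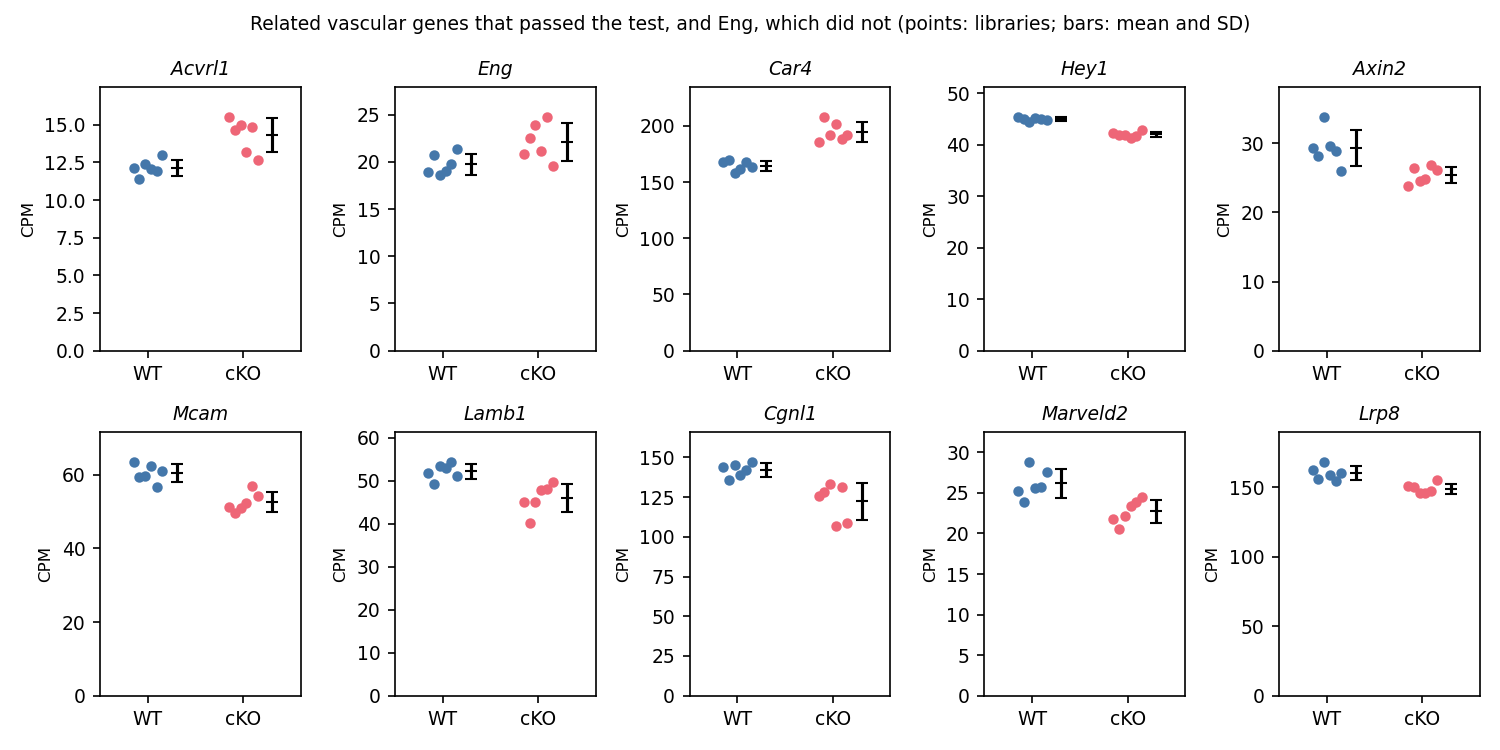
CPM of the 9 related vascular genes that passed the test, and of Eng, which did not, in each of 6 WT (blue) and 6 cKO (red) libraries, with axes from 0 and black bars for mean and SD. Car4 lies at 158 to 169 in WT and 186 to 208 in cKO, while the Eng values of both genotypes overlap.

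The ligands Vegfa, Angpt1, Pdgfb and Jag1 and the co-receptor Nrp1, named here for their role beside members, did not pass. Acvrl1, the receptor that works with the member Eng, did pass, as given above. Vegfa, the ligand of Kdr and Flt1, measured 164 ± 7.11 CPM in WT against 166 ± 5.77 in cKO (SD, n = 6 each; log2 fold change 0.021, edgeR adjusted p = 0.819). The VEGF co-receptor Nrp1 had a log2 fold change of 0.14, the Tek ligand Angpt1 −0.082, the Pdgfrb ligand Pdgfb 0.073 and the Notch ligand Jag1 0.053 (edgeR adjusted p = 0.355, 0.642, 0.694 and 0.811). Neither these ligands nor their receptors among the members therefore passed the test.

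Of the 34 other endothelial genes tested, 21 had positive and 13 negative log2 fold changes (median 0.040, range −0.22 to 0.23), and the only one called, Cgnl1, fell. Positive values that missed the threshold included Cd93, a C-type lectin receptor, at 0.20, Nos3, the endothelial nitric oxide synthase, at 0.17, and Cd34, a sialomucin, at 0.14 (edgeR adjusted p = 0.108, 0.209 and 0.123). Nos3 and Cd34 lie outside the rule for named genes and were chosen after their values were seen. Cd93 passed without cKO replicate 5 (adjusted p = 0.0493, range over 22 alternatives 0.0493 to 0.662). In the mural list Pln, phospholamban, a regulator of the calcium pump of muscle, had the most negative log2 fold change at −0.40 (SE 0.13, adjusted p = 0.113). It passed without cKO replicate 6 (adjusted p = 0.0442, range over 22 alternatives 0.0442 to 0.577). Nid1, the basement membrane linker nidogen, had 0.079 (adjusted p = 0.361).

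Other cell types in the tissue were followed beside the vascular genes. Each list was summarised by its mean log2 CPM in every library, set to 0 at the WT mean. The identity genes ran from −0.063 to 0.078 in WT and from −0.013 to 0.155 in cKO, with 3 cKO libraries (replicates 2, 3 and 5) above the highest WT library. Forebrain neuron genes, of which 9 of 12 were tested, ran from −0.198 to 0.370 in WT and from 0.106 to 0.651 in cKO. The highest library was cKO replicate 1. Only WT replicate 5 reached into the cKO range. The next WT library, replicate 6, was at 0.006, below all 6 cKO libraries. Of the 9 forebrain genes tested 1 was called, against 2.64% of all tested genes, and their median log2 fold change was 0.246. At an unadjusted edgeR p under 0.05 there were 4 of the 9 (44.4%), against 14.2% of all tested genes. The 4 libraries highest in forebrain neuron genes were cKO replicates 1, 2 and 3 and WT replicate 5. Without those 4 libraries 11 of the 15 identity genes kept a positive log2 fold change and their median was 0.021, against 0.075 with all 12. With the forebrain level as a covariate 12 of 15 were positive and the median was 0.063, and with surrogate variables 11 of 15 were positive and the median was 0.051.

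Vessels also carry fibroblasts and macrophages around them. Of 15 genes of meningeal and perivascular fibroblasts 0 were called, and the list differed by −0.022 between the genotype means. Of 13 genes of microglia and perivascular macrophages 2 were called, both higher (Cx3cr1 and Csf1r), against 2.64% of all tested genes. The list level ran from −0.048 to 0.070 in WT and −0.019 to 0.184 in cKO. The highest library of this list, cKO replicate 2, was also the highest in identity genes. It was highest in astrocyte genes and other endothelial genes as well, so this is not particular to microglia. In fibroblast genes WT replicate 4 was highest. Astrocyte genes, which include those of the endfeet on vessels, had 0 of 12 called, and oligodendrocyte genes 0 of 10. The share of 2.64% over all tested genes applies to each of these lists.

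Choroid plexus genes varied most, from −0.700 to 0.560 in WT and −1.02 to 1.13 in cKO, with 0 of 12 called. Their summed level ran from 490.2 to 1204 CPM in WT and from 378 to 1856 in cKO; this tissue has vessels of its own. With the choroid plexus level as a covariate all 15 identity genes still had positive log2 fold changes, with a median of 0.067, and 0 of 34 members were called. Of 6 erythrocyte genes only 2 were tested, and 0 were called. The part of microglia in the values of the vascular genes was not tested.

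**Figure D5:**
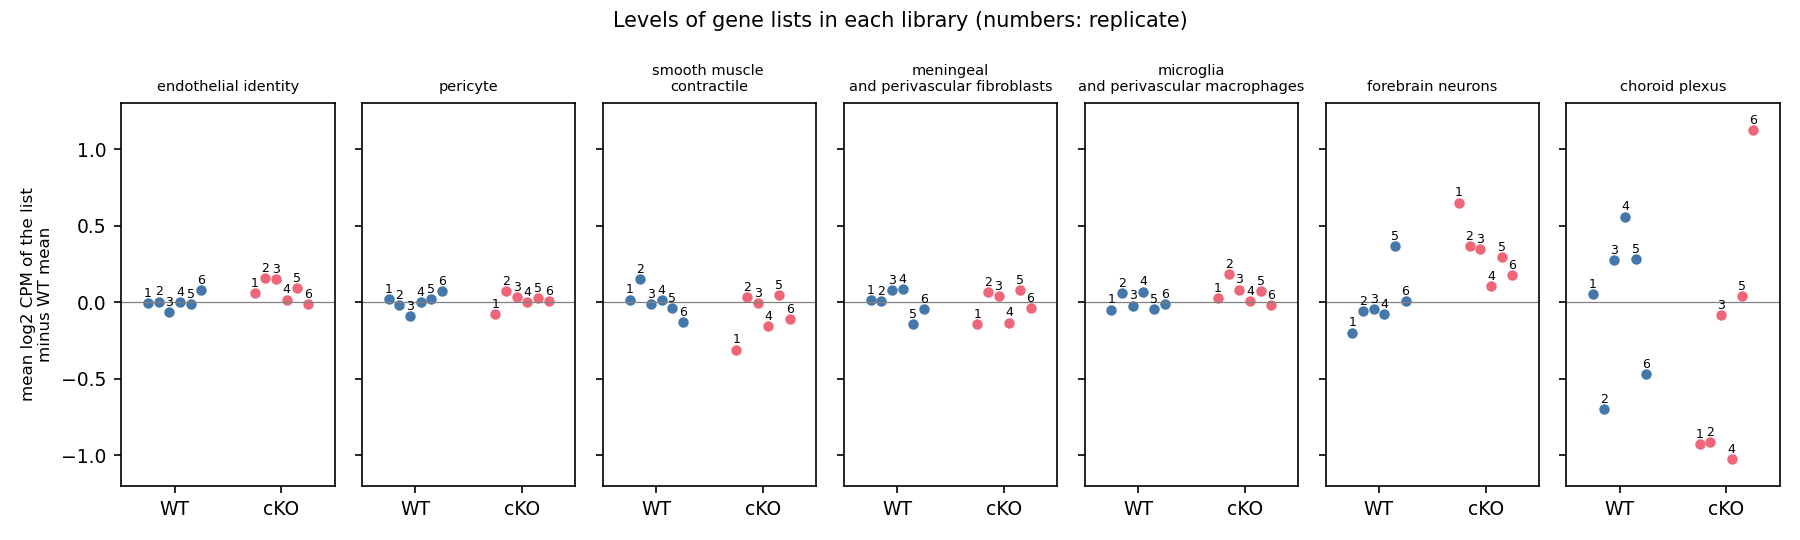
Mean log2 CPM of 7 gene lists in each library, relative to the WT mean, with the replicate number above each point (WT blue, cKO red). Identity genes spread from −0.063 to 0.155, whereas choroid plexus genes spread from −1.02 to 1.13, and cKO replicate 1 is highest in forebrain genes and lowest in smooth muscle genes.

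The members varied a little more between libraries than other genes of their level. Their estimated biological coefficient of variation had a median of 1.07 times the trend, against 0.884 over all genes, and 21 of 34 were above the trend against 4561 of 15467. Vwf was the extreme at 2.80, and Vtn, Flt1 and Mfsd2a followed at 1.32, 1.31 and 1.31. At the other end Higd1b and Bsg had 0.669 and 0.674. The median coefficient of variation of CPM within a genotype was 4.83% for barrier genes, 6.35% for identity genes and 7.59% for pericyte genes, and it was higher still for the 3 smooth muscle genes.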

How the data were processed

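The authors deposited whole-number read counts per gene symbol, not normalised, per the file headers. They also deposited a DESeq2 table with a base mean signal, a log2 fold change with its standard error, a test score and p-values, per the file headers. Per the submitters' processing notes the tools were STAR and DESeq2 (no versions) and the build was mm10. Which tool counted reads, and with which strand setting, is not given in the sources used here. Libraries were stranded mRNA libraries multiplexed on common lanes, per the labels' protocols.

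Counts were fitted in edgeR 4.0.16 (R 4.3.3) with filterByExpr, TMM and the quasi-likelihood test for all 15467 genes tested, with Benjamini-Hochberg adjustment at 0.05. Intervals came from the test statistic. Single genes were also tested by exact permutation of log2(CPM + 0.1) over 924 assignments (smallest two-sided p 0.00216). Positions and exon lengths came from GENCODE M21 (mm10), promoters from RefSeq. The steps were tested on simulated data. Each library was counted as a sample. Pairs of libraries in a genotype differed by more than counting noise (chi-square per degree of freedom at least 2.68). Whether this spread arose between mice or in library preparation cannot be told from it. The p-values set the difference between genotypes against the spread between libraries.

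The members and lists were chosen with earlier results of these data known. The lowest, median and highest library of each genotype are given for the 3 members with the smallest p of each role. Of other lists the 2 genes with the smallest p were named where a sentence turns on them. Alternatives were RLE or total count scaling, no filter, DESeq2 1.42.0, thinned counts, meningeal level or surrogate variables (sva 3.50.0) as covariates and leaving out each library; forebrain and choroid plexus covariates, and leaving out the 4 libraries highest in forebrain genes, were added after seeing the data. Some genes of the forebrain list are not reported here singly.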

Additional observations from a re-analysis of the deposited data

Results flagged for a closer look

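In 4 cases 1 library of a genotype stood apart from the other 5 by Dixon's test, which chance does in about 1 of 20 groups. Among the 34 members 3 of 68 groups of 6 were marked, close to that rate. Abcb1a measured 43.8 CPM in WT replicate 5, where the nearest WT library had 47.2. The same gene measured 51.0 in cKO replicate 1, where the nearest cKO library had 46.7. Rgs5 measured 29.6 in WT replicate 2 against 33.1 in the nearest library. Outside the members, Nos3 measured 13.1 in cKO replicate 5 against 11.35 in the nearest library.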

How the results depend on the processing

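The count of members called was 0 in 21 of the 22 alternative fits and 1 (Eng) without cKO replicate 6, so leaving out 1 library gave 0 to 1. The count of members whose libraries did not overlap was 0 in all fits but 1, without the 4 libraries highest in forebrain genes, where it was 1 (Abcb1a); with 5 WT and 3 cKO libraries left, 6.13% of all tested genes did not overlap. Calls over all genes went from 409 to 198 with surrogate variables, 94 with the forebrain level as a covariate and 157 without the 4 libraries, and ranged from 272 to 459 on leaving out 1 library, with the lowest without WT replicate 3. Calls among related vascular genes went from 9 to 2 in those 3 fits and 5 with the choroid plexus level, and ranged from 3 to 10 on leaving out 1 library. The median of the smooth muscle members turned to 0.033 with the forebrain level. The causes were not tested. Fits with fewer libraries have less power by construction. The fits with surrogate variables, the forebrain level or the choroid plexus level kept all 12 libraries.

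Of the 34 members 22 changed sign in some alternative and 12 in none, and all 22 were uncalled in those fits. Log2 fold changes of the other sign, for members and the named related genes, were, with DESeq2, Bsg 0.001, and with no filter Bsg 0.001. With thinned counts they were Bsg 0.001, Slco1a4 −0.006, Abcb1a 0.006, Pdgfrb −0.014, Rgs5 −0.014, Acta2 0.019 and Abcb1b 0.004. With the meningeal level they were Kcnj8 −0.001, Anpep 0.013 and Acta2 0.013. With surrogate variables they were Pecam1 −0.029, Tie1 0.000, Esam −0.016, Egfl7 −0.016, Ocln 0.010, Slc2a1 −0.002, Bsg 0.008, Slco1a4 −0.014, Pdgfrb −0.020, Acta2 0.041, Angpt1 0.012 and Pdgfb −0.033. With the forebrain level they were Pecam1 −0.061, Egfl7 −0.018, Ocln 0.019, Bsg 0.013, Slco1a4 −0.071, Vtn 0.018, Acta2 0.098, Myh11 0.033, Pdgfb −0.055 and Jag1 −0.040. Without the 4 libraries highest in forebrain genes they were Pecam1 −0.027, Tek −0.025, Egfl7 −0.001, Vwf −0.036, Bsg 0.007, Slco1a4 −0.029, Rgs5 −0.006 and Jag1 −0.008. On leaving out 1 library the ranges that crossed 0 were Pecam1 −0.003 to 0.043, Tie1 −0.011 to 0.057, Esam −0.009 to 0.058, Ptprb −0.003 to 0.028, Ocln −0.046 to 0.002, Slc2a1 −0.019 to 0.028, Mfsd2a −0.001 to 0.098, Bsg −0.005 to 0.005, Slco1a4 −0.013 to 0.033, Pdgfrb −0.020 to 0.033, Rgs5 −0.025 to 0.021, Kcnj8 −0.031 to 0.038, Vtn −0.047 to 0.006, Anpep −0.059 to 0.037, Notch3 −0.004 to 0.057, Higd1b −0.085 to 0.026 and Acta2 −0.032 to 0.044. Scaling by RLE or total count changed no member's sign.

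No paired analysis was possible because the labels give WT and cKO libraries no shared replicate number, litter or day. Every member had at least 60 counts in every library, and counting error is largest for Higd1b, the rarest.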
